A study of Mus musculus with 6 samples.

Results

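The genes described here build, turn over and anchor the actin cytoskeleton. There were 44 of them: the cytoplasmic actins, the proteins that bind actin monomers or turn filaments over, the Arp2/3 complex, signalling genes that act on actin, the linkers to the plasma membrane, the crosslinkers of filaments and focal adhesions, and the proteins bound along the sides of filaments. The rule that chose them names genes and uses no measured value, though earlier results of these data were known when the list was drawn up. A gene was measured by the probe set that carried its symbol alone, and by the brightest one over all arrays where it had several. This gave 40 of the 44 genes, out of 18193 genes with a probe set of their own on the array. Actr2, Arpc3 and Rock2 had no probe set named here, and the probe sets of Arpc1b were shared with the predicted gene Gm5637. All 40 passed the filter on low signals, as did 11140 genes in all.

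Brown adipose tissue (BAT), the fat depot that burns fuel to make heat, came from 3 KRAP-deficient mice (KO) and 3 wild-type mice (WT), with 1 array for each animal. Each KO animal was a littermate of the WT animal of the same number, and all were 32 weeks old and fed normal chow. In the KO animals exons 11 to 16 of KRAP had been replaced with a neomycin cassette in every tissue, and the line had been backcrossed to C57BL6/J for 6 generations before use. The WT littermates carried no deletion and no mouse received a treatment. KRAP, named as a Ki-ras-induced actin-interacting protein, associates with actin filaments, which is the link between the deleted gene and the genes compared here.

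Actin monomers assemble into filaments that give cells their shape, carry tension and move membranes. Profilins and thymosins hold monomers ready, the Arp2/3 complex starts branches and cofilins and gelsolin cut filaments. In adipocytes a layer of actin beneath the plasma membrane takes part in the insulin-driven delivery of glucose transporters, and the state of actin also sets the activity of SRF, a transcription factor held in check through MRTF by free monomers. Whole tissue was measured, so fewer cells of a type and less RNA per cell cannot be told apart.

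Each signal is stated relative to its array, in multiples of the array median, and differences are stated as log2 of KO minus WT from a limma fit with the littermate pair as a block. The 8 brown adipocyte markers were measured above the array median in every array, Ucp1 among them. KRAP itself (symbol Itprid2) had 1 probe set, with signals of 47.0, 35.1 and 41.4 in the KO arrays in order and 55.3, 56.6 and 42.2 in the WT arrays. Whether it lies within the deleted exons is unknown here, so it does not check the genotypes. One array stood apart in controls of RNA quality. The 18S ribosomal RNA control read 104.7 in WT 2 and 5.60 to 12.9 elsewhere. The ratio of 3′ to 5′ signal of beta-actin was 3.80 in WT 2 and 1.91 to 2.58 elsewhere. The same ratio of GAPDH differed less, at 0.96 in WT 2 and 0.69 to 0.81 elsewhere. Skeletal muscle RNA was uneven, with the 10 markers of that tissue summing to 788.8 in KO 2, to 315.7 in WT 3, and to between 25.3 and 102.5 in the other 4 arrays.

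The first question was whether the actin genes differed in level between KRAP-deficient and wild-type BAT. Of 40 genes, 0 passed the limma test at an adjusted p of 0.05, as did 0.0% of all 11140 genes, and the smallest adjusted p among the 40 was 0.406. At an unadjusted p under 0.05, 1 actin gene was lower in KO (Coro1c) and 0 were higher, beside 4.98% and 3.22% of all genes. More of the actin genes lay below 0 than of all genes. Of the 40, 31 (77.5%) had a difference below 0, beside 61.5% of all genes, and their median difference was -0.14 beside -0.07 over all genes. The median size of a difference, its sign left aside, was 0.17 for the actin genes and 0.18 for all genes.

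The lower side also held more genes when a gene had to lie on the same side in all 3 littermate pairs. KO was below WT in all 3 pairs for 11 genes (27.5%), beside 19.7% of all genes, and above WT in all 3 pairs for Actg1 alone (2.5%), beside 10.9%. The 11 were Actb, Pfn2, Tmsb4x, Coro1b, Coro1c, Rac1, Cdc42, Rock1, Limk2, Ezr and Msn. A difference of 1.5-fold or more in all 3 pairs was reached by 1 gene downwards, Coro1c, beside 0.862% of all genes, and by 0 upwards, beside 0.601%. The signals of the 3 KO and the 3 WT arrays did not overlap for 6 genes that were lower in KO (15.0%), beside 7.87% of all genes, and for 0 that were higher, beside 4.43%. The 6 were Pfn2, Coro1c, Rac1, Cdc42, Rock1 and Msn.

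These counts depended on how the arrays were brought to a common level. With the signals as deposited, 25 of the 40 genes (62.5%) were below 0 beside 51.6% of all genes, and the medians were -0.07 and -0.01. Then 6 genes were lower in all pairs beside 17.5% of all genes, 3 of them among the 11 above (Coro1c, Rac1 and Limk2), and the groups did not overlap for Coro1c alone (1 of 40, 2.5%), beside 6.64% of all genes. With quantile normalization 27 genes (67.5%) were below 0 beside 51.8%, 10 were lower in all pairs beside 18.2%, and the groups did not overlap for Coro1c and Msn alone (2 of 40), beside 6.83%. The larger share of actin genes without overlap was thus seen with median scaling and with neither of these. Leaving out pair 2, which holds both WT 2 and KO 2, left 25 genes below 0 beside 47.6% of all genes, and 9 without overlap beside 13.4%.

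**Figure D1:**
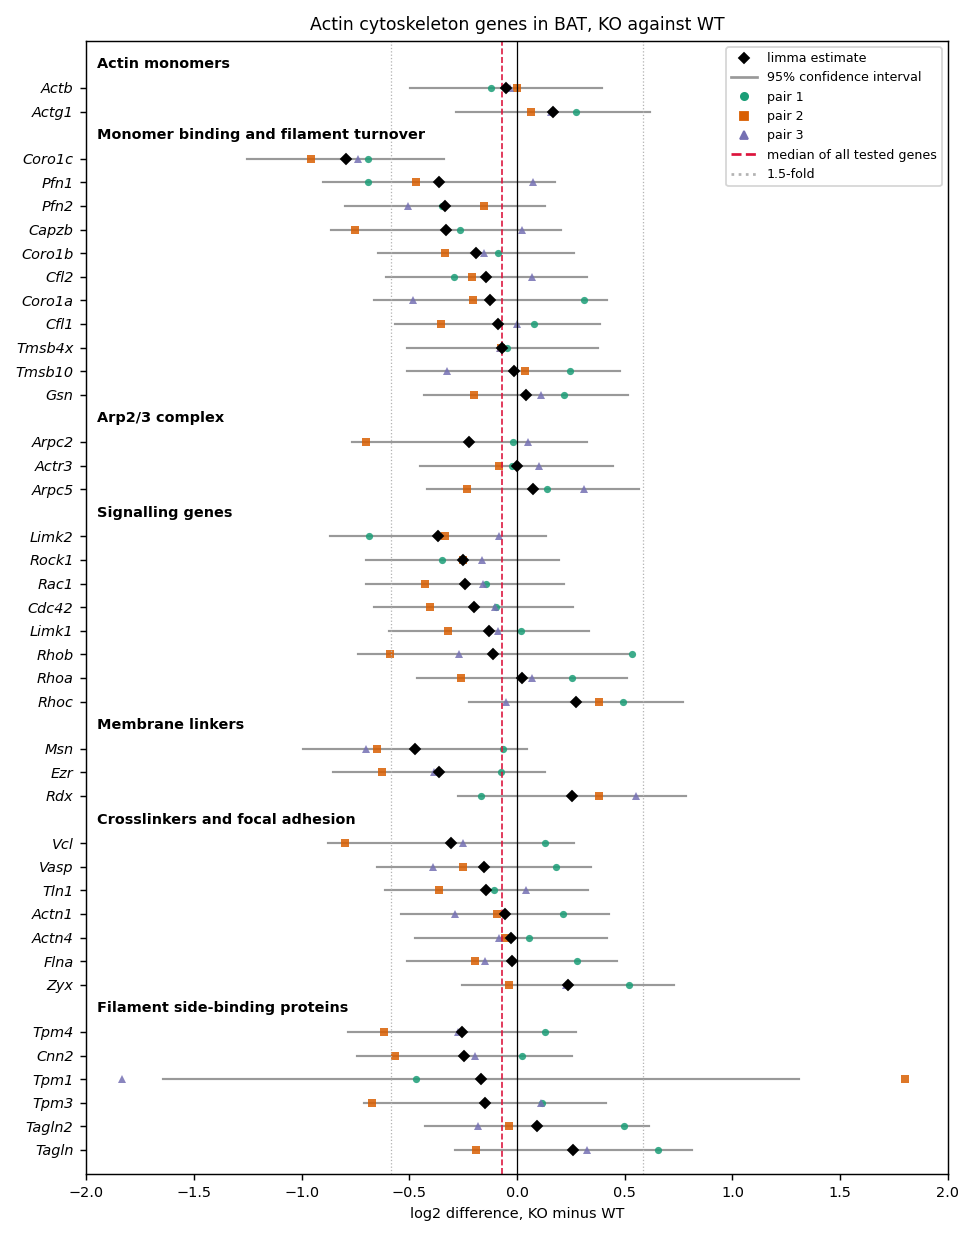
Log2 difference in signal between KO and WT for the 40 measured actin cytoskeleton genes, grouped by role, with the limma estimate (diamond), its 95% confidence interval (line), and the difference within each littermate pair (coloured points). The interval of Coro1c is the only one that leaves out 0, and the interval of Tpm1 runs from -1.64 to 1.31.

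With 3 animals a group, the intervals set what could be seen. The standard error of a difference ran from 0.18 to 0.26, other than 0.615 for Tpm1. For 11 of the 40 genes the 95% confidence interval stayed within 1.5-fold in both directions. It reached 1.5-fold lower for 23 genes and 1.5-fold higher for 7, with Tpm1 counted in both.

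The cytoplasmic actins are the building blocks of the filaments in non-muscle cells. Actb, which encodes beta-actin, read 393.7, 343.6 and 404.3 in the KO arrays and 427.9, 343.7 and 413.3 in the WT arrays, in the order of the pairs, which is kept throughout. The groups overlapped, and the lowest value of each came from pair 2. The means were 380.5 ± 32.4 in KO and 395.0 ± 44.98 in WT (SD, n = 3 each), a difference of -0.05 with a 95% interval from -0.50 to 0.40 (limma adjusted p = 0.964). Actg1, which encodes gamma-actin, read 168.2, 191.0 and 182.5 in KO and 139.0, 182.9 and 163.5 in WT. KO was the higher animal of each pair but the groups overlapped, with a difference of 0.17 (interval -0.29 to 0.62, adjusted p = 0.856). With the signals as deposited Actb was at 0.01, and neither with these nor with quantile normalization was Actg1 higher in all 3 pairs. Both intervals for these actins left out a fall or rise of 1.5-fold except at the upper end for Actg1.

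The array also carries control probe sets along the beta-actin transcript, which show how far the reading of Actb depends on position. At the 3′ end they read 361.1, 357.3 and 369.6 in KO and 376.0, 361.8 and 411.1 in WT, lower in KO in each pair. At the 5′ end they read 184.9, 157.8 and 143.1 in KO and 182.1, 95.3 and 215.2 in WT. The difference within pair 2 was therefore -0.02 at the 3′ end and 0.73 at the 5′ end, and within pair 3 it was -0.15 and -0.59. The middle control lay between them in both pairs, at 0.37 and -0.36. WT 2 was the array with the lowest 5′ signal and also the one with the high 18S signal, and the part of RNA quality in these readings was not tested.

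**Figure D2:**
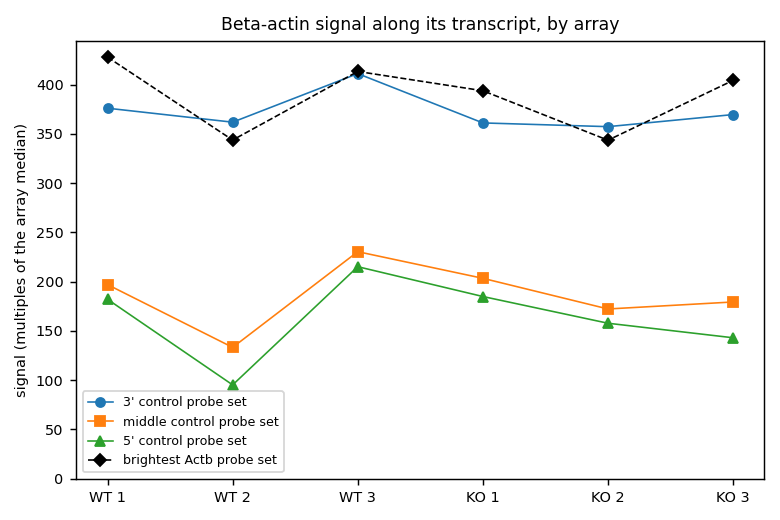
Beta-actin signal in multiples of the array median (vertical axis, starting at 0) for each of the 6 arrays, at the 3 control probe sets along the transcript and at the brightest Actb probe set. The 3′ control stays between 357.3 and 411.1, while the 5′ control drops to 95.3 in WT 2.

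Actin genes are classic targets of SRF, which binds the CArG box, a run of A and T bases between a pair of C and a pair of G. The promoters were searched for this motif without a mismatch, and it reads alike on both strands. The RefSeq promoter windows of assembly GRCm38.p6, 250 bases before to 50 bases after a transcript start, held it for 3 of 39 listed genes with a window (7.69%), beside 488 of 27025 genes (1.81%). These 3 were Cnn2, Actg1 and Vcl. Their sites are shown 5′ to 3′ on the strand of the gene, with the CArG box in capitals, because they are the members that hold a box and have a measured difference. The distance before the start is that of the first base of the box, in capitals. The coordinates are those of the whole stretch shown.
Cnn2, chr10:79988534-79988563, plus strand, from 56 bases before the start: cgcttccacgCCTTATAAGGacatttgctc
Actg1, chr11:120348566-120348595, minus strand, from 90 bases before the start: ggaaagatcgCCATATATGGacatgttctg
Vcl, chr14:20929161-20929190, plus strand, from 227 bases before the start: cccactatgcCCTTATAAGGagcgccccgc
The CArG boxes of Cnn2 and Vcl had the same letters. The differences of the 3 genes were -0.25, 0.17 and -0.31, with a median of -0.25, and those of the 32 measured genes with a window and without a box ran from -0.80 to 0.27 with a median of -0.13. The 3 genes thus lay within the range of the others and on both sides of 0. A match to these letters is a description and not evidence of binding. Actb had no promoter window here.

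Genes that bind monomers or turn filaments over held the only gene with an unadjusted p under 0.05. Of the 11, 10 (90.9%) had a difference below 0, beside 61.5% of all genes, with a median of -0.14. KO was lower in all 3 pairs for 4 (36.4%), beside 19.7% of all genes. Coro1c encodes a coronin, a protein that works with the Arp2/3 complex and cofilin at the cell cortex. It read 1.64, 2.03 and 1.81 in KO and 2.64, 3.95 and 3.02 in WT, so that the highest KO value lay below the lowest WT value. The means were 1.83 ± 0.20 in KO and 3.20 ± 0.67 in WT (SD, n = 3 each), 1.74-fold lower in KO, with a difference of -0.80 (SE 0.19, interval -1.25 to -0.34). The unadjusted p was 0.00482 and the limma adjusted p 0.406, which did not pass.

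Coro1c was read by 2 further tested probe sets, at -0.51 and -0.24. The first of these was lower in KO in all 3 pairs, though by only 0.02 in pair 3, and the second was lower in pairs 1 and 3 alone. All of them read less than 4 times the array median. Over the alternatives tried the difference of Coro1c ran from -0.85 to -0.51 and its adjusted p from 0.109 to 0.788. The other coronins lay nearer to 0. Coro1b was at -0.19 and lower in all 3 pairs, and Coro1a, the form best known from leukocytes, was at -0.13 and lower in pairs 2 and 3.

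**Figure D3:**
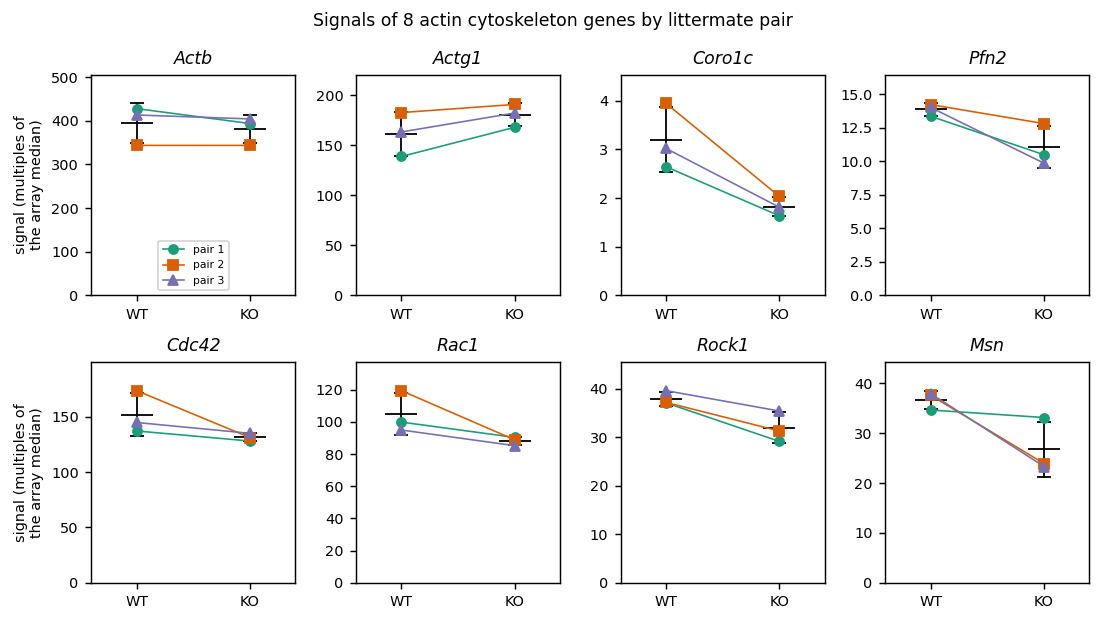
Signals in multiples of the array median (vertical axes start at 0) for 8 actin cytoskeleton genes in WT and KO, with the animals of a littermate pair joined by a line and the group mean ± SD (n = 3) in black. KO lies below WT in every pair for 7 of the genes and above WT for Actg1, and the groups do not overlap for Coro1c, Pfn2, Cdc42, Rac1, Rock1 and Msn.

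Profilins load actin monomers with ATP and feed them to growing ends. Pfn2, one of several genes shown in full here after their values had been seen, because their groups did not overlap, read 10.5, 12.8 and 9.86 in KO and 13.4, 14.2 and 14.0 in WT. Its difference was -0.34 (interval -0.80 to 0.13, adjusted p = 0.684), but its other 2 probe sets read 0.12 and -0.04. With the signals as deposited or with quantile normalization, Pfn2 was not lower in all pairs. Pfn1 was at -0.36 and lower in pairs 1 and 2. The thymosins, which sequester monomers, lay close to 0, with Tmsb4x at -0.07 and lower in all 3 pairs by 0.05 to 0.08.

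Tmsb10 read 56.3, 50.4 and 41.6 in KO and 47.5, 49.2 and 52.2 in WT, a difference of -0.02 with groups that overlapped. Its probe sets disagreed by more than 1.5-fold, since 3 of the 4 lay between -0.02 and 0.09 and the dimmest at -0.52 (unadjusted p = 0.0410, adjusted p = 0.567). That one read 0.81, 0.85 and 1.36 in KO and 1.22, 1.42 and 1.58 in WT, near the array median. Of the genes that cut or cap filaments, the cofilins Cfl1 and Cfl2 were at -0.09 and -0.14, the capping protein subunit Capzb at -0.33, and gelsolin (Gsn) at 0.04. Gsn was the only one of the 11 above 0, and all 5 of its probe sets were above 0, from 0.04 to 0.57.

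The Arp2/3 complex starts a new filament on the side of an old one. Only 3 of its 6 subunits in the member list were measured. The further subunits Arpc1a, Arpc4 and Arpc5l were read with the other genes of actin biology below. Actr3 was at -0.002, Arpc5 at 0.07 and Arpc2 at -0.22, and none of the 3 was lower or higher in all 3 pairs. Arpc2 took its difference from pair 2, at -0.70, and was at 0.02 without that pair.

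Of the signalling genes, Cdc42, which drives filopodia, read 128.2, 131.3 and 135.1 in KO and 137.3, 173.8 and 145.0 in WT. The groups did not overlap, with WT 2 above the other arrays, and the difference was -0.20 (interval -0.67 to 0.26, adjusted p = 0.822). Cdc42 was the only one of 24 genes with several tested probe sets for which each probe set was lower in KO in all 3 pairs. The share of all genes that meet this rule was not counted, so it does not set Cdc42 apart. The 4 differences were -0.20, -0.14, -0.33 and -0.55, the last with an unadjusted p of 0.0458 and an adjusted p of 0.572. With the signals as deposited its brightest probe set was not lower in all 3 pairs.

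Rac1, which drives lamellipodia, read 90.4, 88.8 and 85.2 in KO and 99.9, 119.4 and 94.96 in WT. The difference was -0.24 (interval -0.70 to 0.22, adjusted p = 0.771), and WT 2 was again the highest array. A second probe set of Rac1 was at 0.002 and lower in only 1 pair. Rock1, a kinase that raises myosin tension, read 29.1, 31.3 and 35.4 in KO and 37.1, 37.2 and 39.6 in WT, a difference of -0.25 (interval -0.70 to 0.20, adjusted p = 0.751). The other 3 probe sets of Rock1 were at -0.03, -0.14 and -0.12. Cdc42, Rac1 and Rock1 were given in full because their groups were apart at the brightest probe set, and their intervals held 0. None of them had groups apart with the signals as deposited or with quantile normalization. Rock1 was not lower in all pairs with either.

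The LIM kinases switch cofilin off. Limk2 read 2.19, 1.72 and 2.82 in KO and 3.52, 2.16 and 2.99 in WT, a difference of -0.37 (interval -0.87 to 0.13, adjusted p = 0.679). The KO animal was lower in each pair but the groups overlapped. Its second probe set went the other way, at 0.28, with 1.87, 1.98 and 2.05 in KO and 1.14, 2.34 and 1.59 in WT. Limk1 was at -0.13. Rhoa was at 0.02, Rhob at -0.11 and Rhoc at 0.27, on both sides of 0. Rhob read 120.2 in KO 1 and 48.9 to 83.1 elsewhere, and the second probe set of Rhoc was at -0.30.

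Ezrin, radixin and moesin tie the actin cortex to membrane proteins. Moesin (Msn) read 33.1, 23.9 and 23.3 in KO and 34.7, 37.6 and 37.9 in WT. All KO values lay below all WT values, and pairs 2 and 3 carried the difference, at -0.65 and -0.70 against -0.06 in pair 1. The fit gave -0.47 (SE 0.22, interval -0.99 to 0.05, adjusted p = 0.622), and a second probe set gave -0.30, lower in 2 of 3 pairs. Ezrin (Ezr), also shown after its values were seen, followed the same pattern over the pairs, with 9.31, 6.30 and 6.26 in KO and 9.80, 9.73 and 8.17 in WT. Its difference was -0.36 (interval -0.85 to 0.13, adjusted p = 0.678), and a second, dimmer probe set was at -0.74 (unadjusted p = 0.0414, adjusted p = 0.569) without being lower in pair 1.

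Radixin (Rdx) did not follow the other linkers at its brightest probe set. It read 25.5, 35.8 and 36.6 in KO and 28.6, 27.5 and 24.9 in WT, higher in pairs 2 and 3, with a difference of 0.25 (interval -0.27 to 0.78, adjusted p = 0.797). Its other 2 probe sets were at -0.15 and -0.13, so the direction of Rdx rested on the choice of probe set. Moesin is abundant in endothelial cells and leukocytes. The 8 endothelial markers, all measured, summed to 66.3 to 75.3 in KO and 81.3 to 94.5 in WT, without overlap. Of the 8, 7 (87.5%) had a difference below 0, beside 61.5% of all genes, and Pecam1 was at 0.05. Lower in all 3 pairs were 4 (50%), beside 19.7% of all genes. Taken singly, 1 marker (12.5%), Tie1, was lower without overlap, beside 7.87% of all genes. The 10 leukocyte markers, 7 of them tested, summed to 92.8 to 106.5 in KO and 84.1 to 117.5 in WT, which overlapped. Of the 7 tested, 6 (85.7%) had a difference below 0, beside 61.5% of all genes. The part of either cell type in the reading of Msn was not tested.

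Crosslinkers bundle filaments, and focal adhesion proteins couple them to integrins. Of 7 genes, 6 (85.7%) were below 0, beside 61.5% of all genes, and the median was -0.06. KO was lower or higher in all 3 pairs for 0 of them, beside 19.7% and 10.9% of all genes. Filamin A (Flna) was at -0.02, the alpha-actinins Actn1 and Actn4 at -0.06 and -0.03, talin (Tln1) at -0.14 and Vasp at -0.15. Vinculin (Vcl), which strengthens adhesions under load, was at -0.31 with most of it from pair 2, where WT 2 read 56.4 against 38.3 to 39.8 in the other WT arrays. Its second probe set was at -0.31 and lower in all 3 pairs. Zyxin (Zyx) was at 0.24, with 0.52 in pair 1, -0.04 in pair 2 and 0.23 in pair 3.

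Tropomyosins, transgelins and calponins lie along filaments and set which partners can bind. Of 6 genes, 4 (66.7%) were below 0, beside 61.5% of all genes. None was lower or higher in all 3 pairs, beside 19.7% and 10.9% of all genes. The transgelins Tagln and Tagln2 were at 0.26 and 0.09, calponin 2 (Cnn2) at -0.25 and Tpm4 at -0.25. The smooth muscle and pericyte markers, 8 of 10 of which were tested, summed to 206.8 to 244.8 in KO and 239.8 to 283.5 in WT, with an overlap. Of the 8, Rgs5 carried most of the sum. Lower in KO in all 3 pairs were 3 (37.5%), Rgs5, Pdgfrb and Cspg4, beside 19.7% of all genes. Higher in all 3 pairs were 4 (50%), Acta2, Myh11, Des and Smtn, beside 10.9%. Notch3 was at -0.36 and lower in 2 pairs. Des read 12.0 in KO 2, the array with the highest sum of skeletal muscle markers, and 6.10 to 7.97 elsewhere. Tagln, a gene of smooth muscle, was highest in KO 1, at 7.78 against 3.76 to 4.95 in the other arrays. The part of smooth muscle RNA in this reading was not tested.

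Tpm1 gave the widest interval of all 40 genes, and the arrays with much skeletal muscle RNA stood out in it. Its brightest probe set read 10.7, 49.9 and 7.64 in KO and 14.8, 14.3 and 27.2 in WT, highest in KO 2 and next in WT 3. The same 2 arrays, in the same order, had the highest sums of the skeletal muscle markers. Within pairs the difference was -0.47, 1.80 and -1.83, and without pair 3 it was 0.67 in place of -0.17. The other probe set of Tpm1 read 11.01, 9.32 and 7.63 in KO and 11.02, 18.1 and 14.4 in WT. It was not raised in KO 2, and it gave -0.62 (unadjusted p = 0.0456, adjusted p = 0.572), with the animals of pair 1 level.

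Tpm3 read 26.1, 21.02 and 24.8 in KO and 24.1, 33.5 and 23.0 in WT at its brightest probe set, a difference of -0.15 with groups that overlapped. Its 5 tested probe sets ran from -0.15 to 1.05. The one at 1.05 (unadjusted p = 0.0714, adjusted p = 0.627) read 0.93, 7.49 and 0.59 in KO and 0.76, 1.17 and 0.52 in WT, and another read 5.06 in KO 2 and 0.36 to 1.21 elsewhere. Both were thus high in KO 2 alone. Tropomyosin genes make muscle and non-muscle transcripts, which different probe sets can read. The part of skeletal muscle RNA in these values was not tested.

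**Figure D4:**
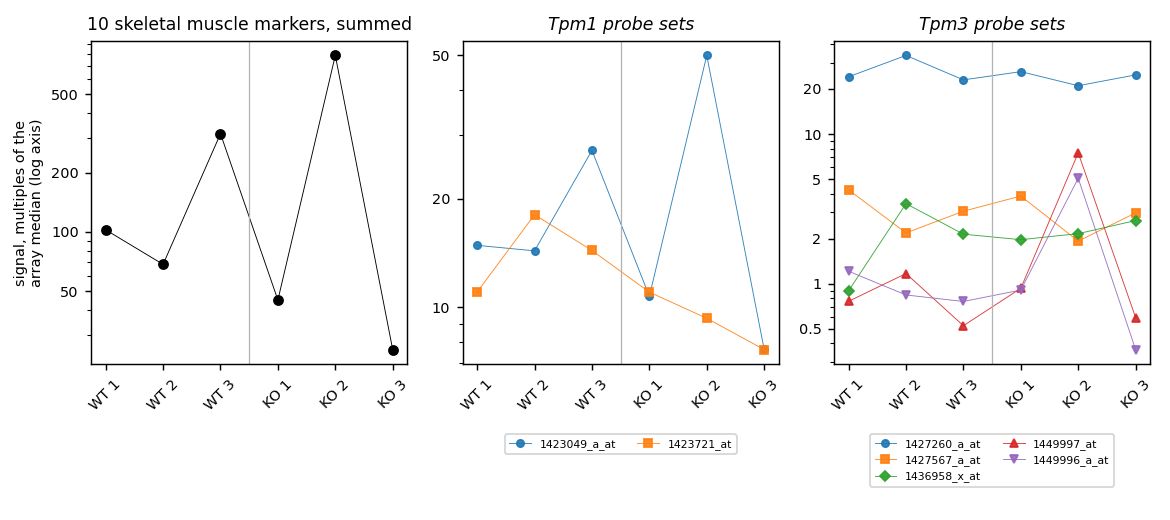
Signal in multiples of the array median (log axes) by array for the sum of 10 skeletal muscle markers and for each tested probe set of Tpm1 and Tpm3, with a vertical line between WT and KO arrays. KO 2 has the highest muscle sum (788.8), the highest value of one Tpm1 probe set (49.9) and of 2 Tpm3 probe sets (7.49 and 5.06), which the other probe sets of these genes do not share.

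The same gene often read differently at another probe set. The 40 genes had 81 tested probe sets, 54 of them below 0, beside 57.9% of all tested probe sets. Of 24 genes with several tested probe sets, 12 had one direction throughout and 12 had both. The brightest probe set of 10 genes was of a kind whose probes can match more than 1 transcript or gene (suffix _s or _x), among them those of Coro1c, Cdc42, Rac1 and Actg1.

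The littermate pairs differed in direction. In pair 1, 19 of 40 genes (47.5%) were lower in KO, in pair 2 35 (87.5%), and in pair 3 26 (65.0%). Over all tested genes these shares were 53.2%, 71.8% and 42.9%. The median differences of the actin genes in pairs 1 to 3 were 0.02, -0.25 and -0.09, beside -0.03, -0.24 and 0.06 for all genes. The medians of actin genes and all genes were thus close in pair 2, the pair that holds WT 2, although a larger share of actin genes was below 0 there. The actin median lay slightly above that of all genes in pair 1 and below it in pair 3. Without pair 2 the number of genes lower in KO in both remaining pairs was 12, beside 25.03% of all genes, and 7 were higher, beside 28.8%. Without pair 1 these numbers were 23, beside 32.8%, and 2, beside 18.1%, and without pair 3 they were 17, beside 40.8%, and 3, beside 15.7%.

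**Figure D5:**
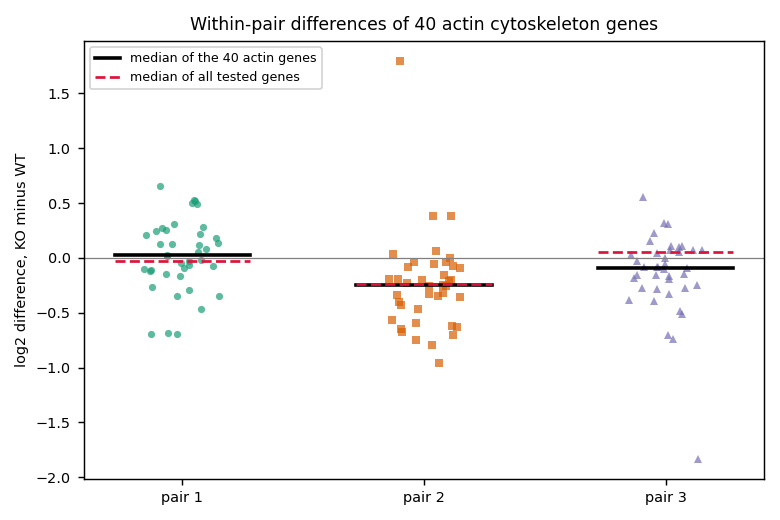
Log2 difference within each littermate pair (vertical axis) for the 40 actin cytoskeleton genes, 1 point a gene, with their median (black line) and the median of all 11140 tested genes (dashed line). The medians of actin genes and all genes nearly coincide in pair 2 (-0.25 and -0.24) and are furthest apart in pair 3 (-0.09 and 0.06).

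Other genes of actin biology were read from the same fit. Of 137 listed genes in 7 lists, 111 were tested and 0 passed the adjusted test. Of the 111, 80 (72.1%) were below 0 beside 61.5% of all genes, with a median of -0.14 beside -0.07. All 3 pairs pointed down for 32 (28.8%) beside 19.7% of all genes, and up for 7 (6.31%) beside 10.9%. The groups did not overlap for 16 genes lower in KO (14.4%) beside 7.87%, and for 3 higher (2.7%) beside 4.43%. At an unadjusted p under 0.05 there were 3 genes lower (2.7%) beside 4.98% of all genes, and 1 higher (0.901%) beside 3.22%. These were Arhgef2, Sptan1 and Fhl1 on the lower side and Ssh3 on the higher side. All counts of these lists were taken with median scaling alone, and other scalings were not run for them. For the actin genes above, the larger share without overlap was not seen with the signals as deposited or with quantile normalization. Whether the shares of these lists depend on the scaling in the same way was not tested.

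Among 12 further subunits and partners of the Arp2/3 complex the median was -0.19. KO was lower in all pairs for 3 (25%), beside 19.7% of all genes. It was higher in all pairs for 1 (8.33%), the subunit Arpc4 at 0.18, beside 10.9%. Those that differed most were the subunit Arpc5l (-0.39), the activator Wasl (-0.31) and Nckap1 of the WAVE complex (-0.30). Among 11 formins and relatives, which extend unbranched filaments, the median was -0.34, with Fhod3 at 0.86, Inf2 at -0.63 and Daam1 at -0.46. Fhod3 read 0.30 to 1.25 in WT and 1.12 to 1.37 in KO, close to the array median. Among 13 further genes of severing and capping the median was -0.04, with the cofilin phosphatases Ssh3 at 0.72 (higher in all 3 pairs) and Ssh1 at -0.37, and Lasp1 at -0.41.

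Among 14 genes of the non-muscle myosin list, the median was -0.14, with 6 lower in all pairs (42.9%) and 2 higher (14.3%), beside 19.7% and 10.9% of all genes. The light chain Myl12a was at -0.43, the light chain kinase Mylk at -0.36 and the heavy chain Myh9 at -0.34.

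Among 25 further crosslinkers and adhesion genes the median was -0.17. KO was lower in all pairs for 8 (32%) and higher for 0, beside 19.7% and 10.9% of all genes. Spectrin alpha (Sptan1), which forms the mesh under the membrane, read 49.5, 48.0 and 51.5 in KO and 67.8, 85.7 and 65.5 in WT, without overlap, at -0.55 (interval -1.03 to -0.06, adjusted p = 0.546). Fascin (Fscn1) was at -0.44 and the integrin adaptor Lims1 at -0.38. Of the SRF pathway and its known targets, 8 of 12 were tested, with a median of -0.06. Fhl1 was at -0.64 (adjusted p = 0.533), lower in all 3 pairs, while Mrtfa, the cofactor that free actin holds back, was at 0.24 and Acta2, smooth muscle actin, at 0.20, both higher in all 3 pairs. The targets of the pathway thus lay on both sides of 0.

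The sums of one further marker list were apart between the groups. The 8 markers of fibroblasts and adipocyte progenitors, all tested, summed to 188.9 to 243.7 in KO and 163.2 to 181.6 in WT, without overlap. All 8 had a difference above 0, while 61.5% of all genes had one below 0. None of the markers in the 6 lists lay at the floor in every array. The 8 brown adipocyte markers summed to 1921 to 2466 in KO and 1942 to 2537 in WT, which overlapped. Endothelial sums were lower in KO and progenitor sums higher while most actin genes lay slightly lower, and their part in the actin values was not tested.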

How the data were processed

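The authors measured BAT RNA of 3 KO and 3 WT mice on Affymetrix whole-genome mouse arrays and deposited a linear signal intensity for each probe set. The submitters' processing notes name GCOS as the tool, and its version, algorithm and scaling target are unknown here. Array medians ran from 16.5 to 20.4 intensity units. After 64 control probe sets were set aside, 45037 remained, of which 34945 carried 1 gene symbol in the platform annotation, 932 several and 9160 none. Through gene identifiers 34741 were matched to the GRCm38.p6 gene table, with 0 renamed.

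Each intensity was divided by its array median, floored at 0.25 and taken to log2. The 22356 probe sets with a mean above 1 were fitted in limma 3.58.1 (R 4.3.3; lmFit, eBayes) with genotype and pair, and p-values were adjusted over all of them (Benjamini-Hochberg, 0.05). A gene was read at its brightest probe set. The floor makes folds of dim signals too small. The fit was tested on simulated data. Groups came from the labels, and the pairs from the design text of the series, which gives animals of the same number as littermates. The correlation of deviations from the group means was 0.446, 0.0847 and 0.160 for the 3 pairs, and between -0.359 and 0.282 for animals of different pairs. The number of arrays limits precision.

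The member genes, lists and markers were chosen with earlier results of these data known. Values in every array were given for both cytoplasmic actins, for genes with an unadjusted p under 0.05 or 1.5-fold in all pairs, and for genes whose probe sets disagreed in direction by over 1.5-fold. Up to 3 genes with the largest differences were named in each pathway list. Other genes given in full were chosen after their values were seen. Alternatives were other scalings, floors and filters, a pseudocount, another prior, a fit that ignores the pairs, other ways to pick the probe set of a gene, and leaving pairs out. Those for counts without overlap were added after seeing the data. One pathway list and the summary of one group of members are not reported here.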

Additional observations from a re-analysis of the deposited data

How the results depend on the processing

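The median difference of the actin genes stayed below 0 under every alternative run, from -0.19 to -0.05. The median over all genes was also below 0 in most settings where it was taken. It was -0.07 with median scaling and -0.01 both with the signals as deposited and with quantile normalization. Without pairs 1, 2 and 3 in turn it was -0.09, 0.01 and -0.13. The count of probe sets passing the test was 0, with 1911 at an unadjusted p under 0.05, and without the pair as a block it was again 0, with 1283. It became 123 with a pseudocount of 1, 311 when the prior followed intensity and was robust, 40 when a mean signal of 2 was asked for, and 0 to 255 with a pair left out (255 without pair 1), but 0 actin genes passed under any of these, with a smallest adjusted p of 0.109. The cause was not tested. Over single genes and alternatives, 552 values were compared: 514 kept their direction and 38 turned, in 19 of the 40 genes. The other floors, filters and prior, and the fit without the pair block, leave each of these differences as it is. Their 40 values each could not turn and are among the 514. With the mean over probe sets, the 16 genes with 1 tested probe set also keep their value. With plain probe sets alone (suffix _at with no letter before it), so do the 19 genes whose brightest probe set is plain. None of these values speaks for stability. Removing the pair block changed no call.

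Genes lower in all pairs numbered 6 with the signals as deposited (17.5% of all genes) and 7 with plain probe sets alone (32 genes). They numbered 12 to 23 with a pair left out, when only 2 pairs are asked for. Then 25.03% to 40.8% of all genes met the rule. Genes higher in all pairs numbered 3 with the signals as deposited and 2 with quantile normalization. With a pair left out they numbered 2 to 7, beside 15.7% to 28.8% of all genes. Genes 1.5-fold lower in all pairs numbered 0 with a pseudocount of 1, 0 with the mean over probe sets, 0 with plain probe sets alone, and 1 to 2 with a pair left out. Where no share of all genes stands beside a count here, none was taken, so the count has no background. Genes lower without overlap numbered 1 with the signals as deposited (6.64% of all genes), 2 with quantile normalization (6.83%) and 9 to 19 with a pair left out, when 13.4% to 26.7% of all genes met the looser rule.

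These values turned direction, or did so with a pair left out. With the signals as deposited, Actb was at 0.0108, Tmsb10 at 0.0457, Actr3 at 0.0599, Flna at 0.0393, Actn1 at 0.0059 and Actn4 at 0.0335. With quantile normalization, Tmsb10 was at 0.0471, Actr3 at 0.0617, Flna at 0.045 and Actn4 at 0.0294. With the mean over probe sets, Rhoc was at -0.0152, Rdx at -0.0074, Tagln2 at -0.0855 and Tpm3 at 0.281. With plain probe sets alone, Actb was at 0.0156, Cfl1 at 0.0026, Actr3 at 0.0452, Rhoc at -0.304, Rac1 at 0.0023 and Tpm3 at 1.05. With each pair left out in turn, Gsn ran from -0.0443 to 0.164, Actr3 from -0.0535 to 0.0382, Rhoa from -0.0951 to 0.163, Tagln2 from -0.109 to 0.231, Cfl1 from -0.176 to 0.0399, Arpc2 from -0.359 to 0.0174, Rhob from -0.431 to 0.132, Flna from -0.173 to 0.0643, Tpm3 from -0.281 to 0.112, Tmsb10 from -0.146 to 0.139, Coro1a from -0.344 to 0.0534, Arpc5 from -0.0456 to 0.224, Actn1 from -0.19 to 0.06, Actn4 from -0.0707 to 0.0005 and Tpm1 from -1.15 to 0.665. Coro1c, Limk1 and Limk2 carried little signal over the array median, which limits what can be said of them.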
